A study of Clonorchis sinensis with 4 samples.

Results

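Small RNA of the Chinese liver fluke, Clonorchis sinensis, was searched for let-7 and miR-125, the heterochronic miRNAs that time development in other animals. The entries of class mature whose name begins with let-7 or miR-125 were taken from each library's table. There were 3 of them, let-7-5p, let-7-3p and miR-125c-5p, among 55 known miRNAs over all libraries, and all 3 were listed in every library. The study sequenced 4 libraries, 1 each of extracellular vesicles shed by adult worms, of eggs, of metacercariae (the encysted larvae that wait in a fish) and of adult worms. No treatment or genetic change is named for any of them, and the sources used here do not give the strain, the host or the number of worms or eggs pooled. With 1 library per group, every difference below is between libraries and has no replicate check, and no test between groups was run. Intervals are exact 95% intervals that cover counting error only, and no molecular identifiers are described, so tags may include copies of the same molecule.

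let-7 was found in the nematode Caenorhabditis elegans, where it and lin-4 switch larval cells from an earlier to a later fate. miR-125 is the relative of lin-4 in other animals, and in many of them it shares a transcript with let-7 and miR-100. A miRNA hairpin gives a 5p and a 3p strand: for let-7 the 5p strand is the one that Argonaute proteins keep and that pairs with target mRNAs through its seed, while the 3p strand is mostly degraded.

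The deposited sequence of let-7-5p is shown because its seed defines the family. The 21 bases are given 5′ to 3′ in DNA letters as in the authors' vesicle table, with the seed, bases 2 to 8, in capitals.
let-7-5p: gGAGGTAGttcgttgtgtggt
The strand has 10 G and 8 T against 2 A and 1 C. Its name was matched by the authors to let-7 of Schistosoma mansoni, Schistosoma japonicum and C. sinensis alike, that of let-7-3p to C. sinensis alone, and that of miR-125c-5p to S. mansoni alone. A genome position was not analysed here for any of them.

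The vesicle library was much shallower than the others. Known and predicted miRNAs together held 302004 tags there (12.8% of annotated tags), while eggs had 4339591 (21.1%), metacercariae 8559610 (41.8%) and adults 3567193 (18.4%). Levels below are tags divided by these miRNA totals times 1000000, written as RPM of miRNA tags, with no length correction, and RPM of annotated tags uses all annotated tags instead. A count of 0 allows up to 3 tags, which is 9.93 RPM of miRNA tags in vesicles and between 0.350 and 0.841 in the stages.

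let-7-5p, the active strand of let-7, was one of the leading miRNAs in vesicles and of middle rank in the stages. The shallow vesicle library had 9024 tags of it, eggs 3144, metacercariae 11934 and adults 10145. In vesicles it reached 29880.4 RPM of miRNA tags (29276 to 30494), or 2.99% of all miRNA tags. As RPM of miRNA tags this was 724 in eggs (699 to 750), 1394 in metacercariae (1369 to 1419) and 2844 in adults (2789 to 2900). Eggs were lowest and adults highest on this scale, and the counting intervals of the 3 stages did not overlap. Lack of overlap is not particular to let-7, since counting intervals are narrow. Even for miR-71a-5p the ratio in eggs over metacercariae, 0.994, had an interval below 1 (0.992 to 0.997). The order of the later stages depends on the scale, since in RPM of annotated tags let-7-5p stood at 582 in metacercariae and 523 in adults. Among known miRNAs it ranked 5 of 36 in vesicles, 28 of 55 in eggs, 24 of 53 in metacercariae and 21 of 53 in adults. The entries next to it in rank were miR-10-5p (10844 tags) and miR-1 (7851 tags) in vesicles, and miR-755-3p (11964 tags) and miR-96-5p (9645 tags) in adults.

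let-7-3p, the strand that is usually discarded, was scarce everywhere. Vesicles had 3 tags, eggs 26, metacercariae 141 and adults 290. The 3 vesicle tags amount to 9.93 RPM of miRNA tags with an interval of 2.05 to 29.0. In the stages the level was 5.99 RPM of miRNA tags in eggs (3.91 to 8.78), 16.5 in metacercariae (13.9 to 19.4) and 81.3 in adults (72.2 to 91.2). The stage order was again eggs, metacercariae, adults, with no overlap of the stage intervals, and the vesicle interval takes in the egg and metacercaria levels and lies below the adult level.

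miR-125c-5p, the only miR-125 entry and the relative of lin-4, was scarce in every library and rests on 1 tag in eggs. Vesicles had 5 tags, eggs 1, metacercariae 17 and adults 37. The vesicle level was 16.6 RPM of miRNA tags (5.38 to 38.6). Among the stages it was 0.230 RPM of miRNA tags in eggs (0.00583 to 1.28), 1.99 in metacercariae (1.16 to 3.18) and 10.4 in adults (7.30 to 14.3). The intervals of the single egg and metacercaria libraries overlap, although that of their ratio, given further on, lies below 1, and the adult level lies above both. The vesicle interval overlaps that of adults.

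**Figure D1:**
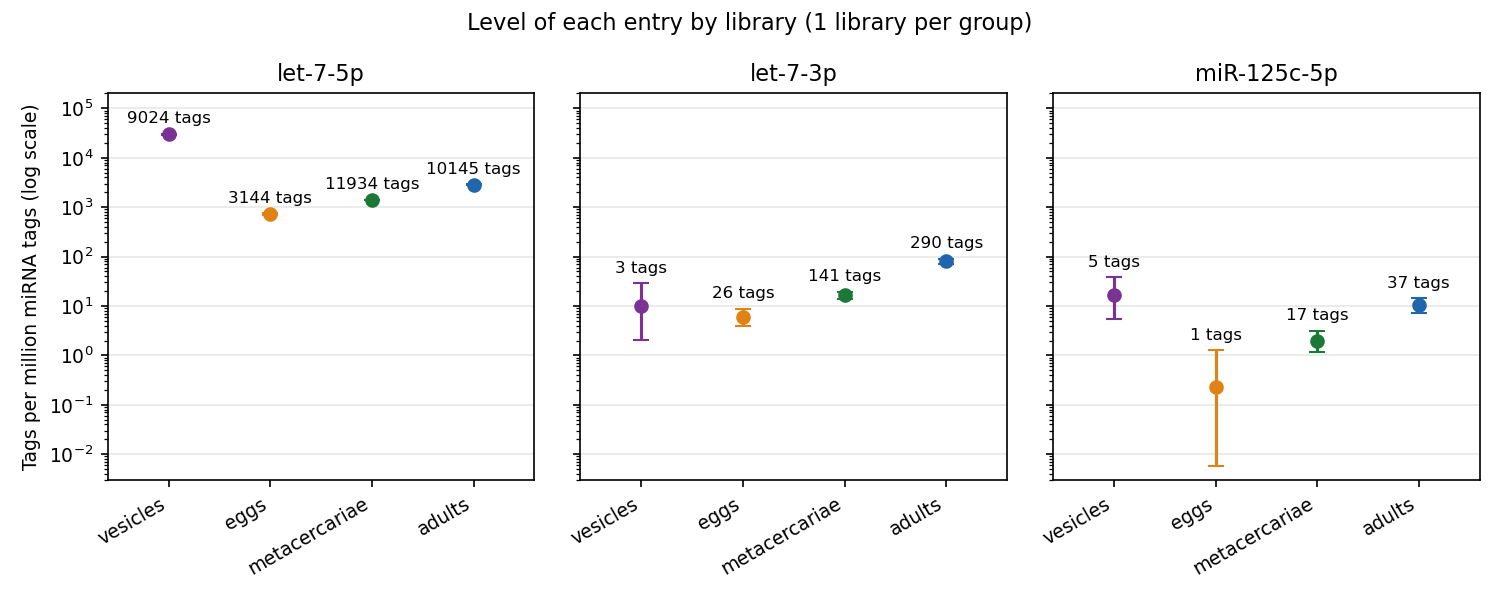
RPM of miRNA tags (log scale) of let-7-5p, let-7-3p and miR-125c-5p in the single library of vesicles, eggs, metacercariae and adults, with exact 95% counting intervals as bars and the tag count above each point. Among the stages all 3 entries are lowest in eggs and highest in adults on this scale, and let-7-5p alone is far higher in vesicles (9024 tags) than in any stage.

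The low levels in eggs were set against adults next. let-7-3p had a ratio of 0.0737 in eggs over adults (0.0473 to 0.110), a 13.6-fold lower level. For miR-125c-5p the ratio was 0.0222 (5.48e-04 to 0.132) on its 1 egg tag. In RNA of whole eggs and worms, fewer cells that hold a miRNA and less of it per cell cannot be told apart. The ratio of let-7-5p was 0.255 (0.245 to 0.265), or a log2 fold of -1.97 with a pseudocount of 1 RPM. To be counted as higher or lower an entry needed a fold of 4 or more with that pseudocount, 10 tags or more in its higher library, and a ratio whose whole interval lay beyond 2-fold. By this rule 2 of the 3 entries were lower in eggs and let-7-5p came just short of the fold. Over all 161 miRNA entries tested 21.7% were lower in eggs (35 entries) and 6.83% higher (11 entries), with a median log2 fold of -0.60. Among known miRNAs alone 20.4% were lower and 12.2% higher. By ratio without pseudocount, miR-125c-5p came lowest of the 49 known miRNAs tested, let-7-3p the third lowest and let-7-5p the eleventh lowest, but the interval of miR-125c-5p takes in the next ratios, 0.0665 for miR-10-5p and 0.0737 for let-7-3p. With the pseudocount its log2 fold of -3.21 lay above those of miR-10-5p (-3.91), miR-755-3p (-3.58) and let-7-3p (-3.56). Scaled to annotated tags, miR-125c-5p was not counted, and without the most abundant entries let-7-5p was (ratio 0.194).

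On the scale of miRNA tags metacercariae lay between eggs and adults. let-7-3p had a ratio of 0.203 in metacercariae over adults (0.164 to 0.249) and was counted as lower. For miR-125c-5p, which was not counted, the ratio was 0.191 (0.101 to 0.349). let-7-5p had a ratio of 0.490 (0.477 to 0.503), a log2 fold of -1.03 where the median over all 177 entries was -0.73. The direction of let-7-5p turned to a ratio of 1.11 (1.08 to 1.14) when tags were scaled to all annotated tags. Its ratio was near 1 with median-of-ratios size factors (0.969) and TMM (0.929). Thus 1 of 3 entries was counted as lower, against 24.3% of all entries lower (43 entries) and 9.6% higher (17 entries), or 14.3% lower and 22.4% higher among known miRNAs. The call of let-7-3p was lost with annotated-tag scaling (ratio 0.460), median-of-ratios size factors (0.400) and TMM (0.384). miR-125c-5p was counted as lower when the most abundant entries were left out (ratio 0.136).

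Between eggs and metacercariae none of the 3 entries was counted either way. The ratios in eggs over metacercariae were 0.520 for let-7-5p (0.499 to 0.541), 0.364 for let-7-3p (0.230 to 0.555) and 0.116 for miR-125c-5p (0.00278 to 0.740). All were below 1, as they were under the 4 other scalings. In this comparison 16.6% of 181 entries were counted as lower and 16.6% as higher, 30 each, at a median log2 fold of 0.13, and among known miRNAs 30% were lower and 16% higher. These comparisons share libraries, so their values are not independent of each other.

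Vesicles were scaled against adults over the 51 miRNAs found in both tables, 36 known ones and 15 predicted ones with overlapping coordinates. On that scale let-7-5p had 30257 RPM in vesicles and 3158 in adults, a ratio of 9.58 (9.31 to 9.86). let-7-3p went the other way, with 10.1 RPM in vesicles and 90.3 in adults, a ratio of 0.111 (0.0228 to 0.329). miR-125c-5p, with 5 tags in vesicles and 37 in adults, had a ratio of 1.46 (0.447 to 3.71) whose interval includes 1. let-7-5p was counted as higher and had the third highest ratio of 34 known miRNAs tested, and let-7-3p was counted as lower. In all 12.2% of 49 entries were higher (6 entries) and 44.9% lower (22 entries), with a median log2 fold of -1.56. Of known miRNAs 8.82% were higher and 47.1% lower on this scaling. miRNAs listed in adults but not in vesicles were left out, such as miR-219-5p_1 (38141 adult tags) and miR-36b-3p (22306). In the comparisons of stages such entries were kept, so the shares and the median are not alike. The let-7-3p call rests on 3 vesicle tags and was lost with median-of-ratios size factors (ratio 0.320) and without the most abundant entries (0.197).

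**Figure D2:**
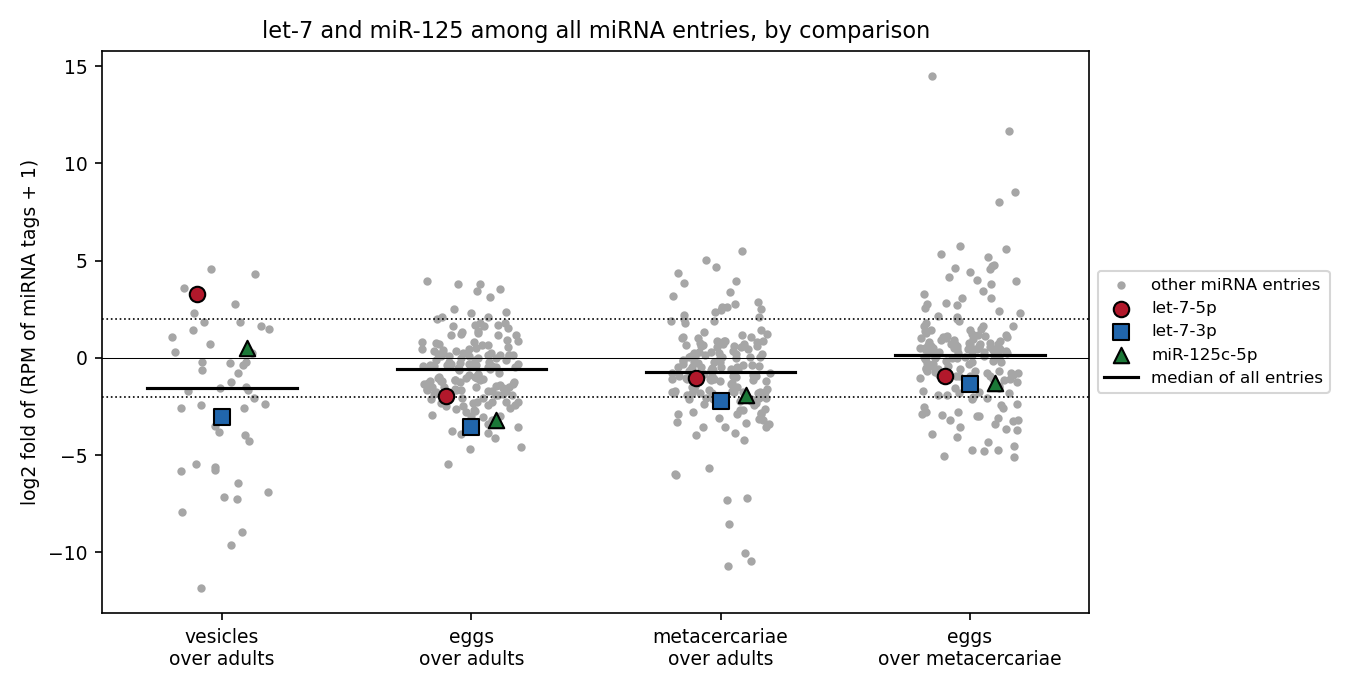
log2 fold of RPM of miRNA tags plus 1 for every miRNA entry tested (grey points, with unlisted predicted miRNAs set at 9 tags), with let-7-5p, let-7-3p and miR-125c-5p marked. Each column is 1 comparison between single libraries, the thick line is the median of all entries and dotted lines mark a fold of 4. The 3 entries lie at or below the median in all comparisons except for vesicles, where let-7-5p (3.26) and miR-125c-5p (0.50) lie above it and let-7-3p (-3.05) below.

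The arms of let-7 are counted in the same library, so their ratio needs no scaling. For each 3p tag, vesicles had 3008 tags of the 5p arm (1029 to 14589), eggs 121 (82.4 to 185), metacercariae 84.6 (71.7 to 101) and adults 35.0 (31.1 to 39.5). In shares, the 3p arm held 0.0332% of let-7 tags in vesicles (0.00685 to 0.0971). It held 0.820% of let-7 tags in eggs (0.536 to 1.20), 1.17% in metacercariae (0.984 to 1.38) and 2.78% in adults (2.47 to 3.11). Adults thus had the largest share of 3p tags and vesicles the smallest, and only the egg and metacercaria intervals overlap. The odds ratio of a 5p over a 3p tag was 86.0 for vesicles over adults (29.1 to 419), 3.46 for eggs over adults (2.31 to 5.39) and 2.42 for metacercariae over adults (1.97 to 2.99). For eggs over metacercariae it was 1.43, with an interval that includes 1 (0.933 to 2.27). At the adult arm ratio, 9024 tags of let-7-5p would come with 258 tags of let-7-3p, where 3 were counted. The name of let-7-3p was matched to C. sinensis alone. Whether the let-7-5p tags of vesicles include tags of another species was not tested, so the 2 arms there need not come from the same hairpin.

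Other hairpins with a 5p and a 3p entry by name were miR-7, miR-71b and miR-2e. In vesicles miR-7, a neural miRNA of many animals, had 0 of 2711 tags on the 3p arm, a share of at most 0.136% by the exact interval, where 25.6 tags would match the adult ratio. In the stages its 3p arm was at 0.339% of both arms in eggs (0.290 to 0.393), 1.26% in metacercariae (1.22 to 1.29) and 0.937% in adults (0.838 to 1.04). Its largest share of 3p tags was therefore in metacercariae and not in adults as for let-7. For miR-71b the 3p arm had 0 tags beside 1063 of the 5p arm in vesicles, 11 beside 159066 in eggs, 9 beside 19330 in metacercariae and 2 beside 26787 in adults. miR-2e, which keeps its 3p arm, had 0 tags of the 5p arm beside 6 of the 3p arm in vesicles, 30 beside 46894 in eggs, 129 beside 61335 in metacercariae and 12 beside 33556 in adults. The vesicle counts of miR-71b and miR-2e are too low to compare arms. For miR-281 and bantam a 3p entry stands beside an entry that names no arm, so no arm ratio was made. miR-281 had 2 tags beside 12 of miR-281-3p in vesicles and 19764 beside 149 in adults. For bantam there were 17531 tags beside 3 of bantam-3p in vesicles and 1122549 beside 1568 in adults.

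**Figure D3:**
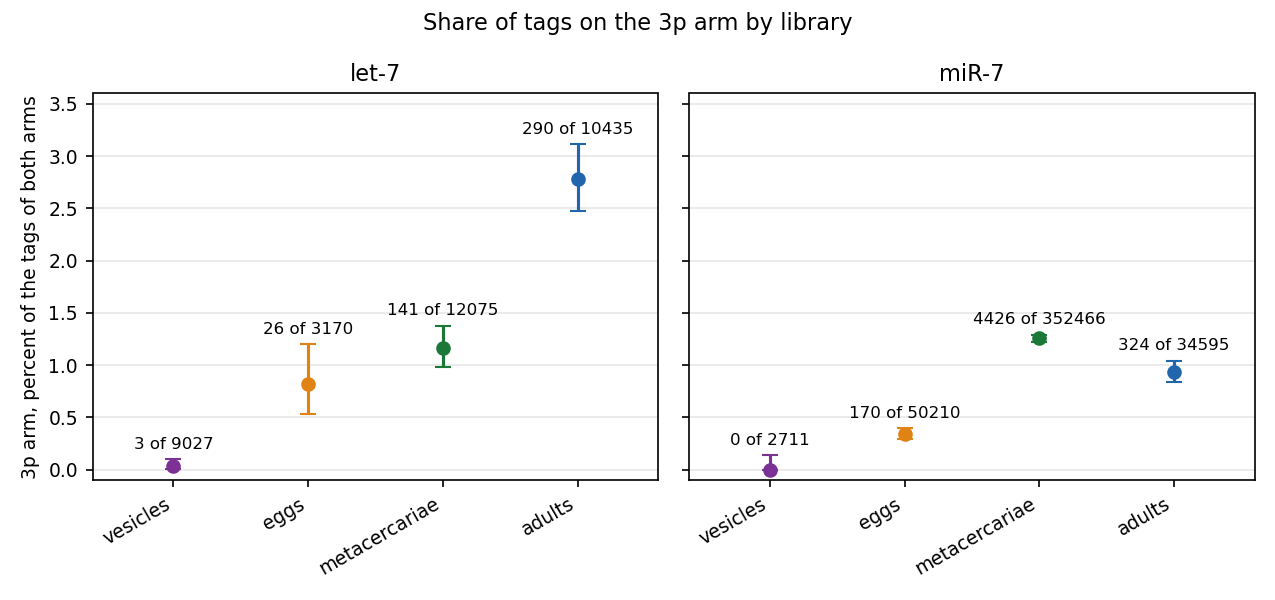
Percent of the tags of both arms that fall on the 3p arm for let-7 and for miR-7 in the single library of vesicles, eggs, metacercariae and adults, with exact 95% binomial intervals and the counts (3p of both arms) above each point. For let-7 the adult point (2.78%) stands above the other libraries and the vesicle point (0.0332%) below them, while for miR-7 the metacercaria point (1.26%) is highest.

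The high let-7-5p level in vesicles came with tags of let-7 outside the known miRNA entries. The authors also list tags by family of Rfam, a database of RNA families. All counts of a library sum to its total, which cannot show whether a tag is listed under both an Rfam class and a miRNA entry. The Rfam let-7 class held 16202 tags in vesicles, while eggs had 0, metacercariae 130 and adults 1. As RPM of annotated tags this is 6862 in vesicles (6756 to 6968) and 0.0515 in adults (0.00130 to 0.287). It was the largest of 103 Rfam miRNA classes in vesicles, with 23.2% of their tags, and it exceeded let-7-5p itself 1.80-fold there. In metacercariae the class had 1.09 tags for every 100 of let-7-5p. Counted as separate tags, let-7-5p and the Rfam let-7 class together made up 1.07% of annotated tags in vesicles (1.06 to 1.08) and 0.0523% in adults (0.0513 to 0.0533). With the class added in the same way, the let-7 ratio of vesicles over adults was 25.4 (24.8 to 26.0).

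The Rfam lin-4 class, the family that includes miR-125, was also highest in vesicles, although miR-125c-5p itself was not counted as higher there. Vesicles had 223 tags of the class (0.319% of their Rfam miRNA tags), eggs 1, metacercariae 14 and adults 0. At 94.4 RPM of annotated tags in vesicles (82.5 to 108) it was at least 611-fold higher than adults if the adult library is put at 3 tags, and the exact interval of the ratio, which also covers the vesicle count, begins at 493-fold. In vesicles it outnumbered the 5 tags of miR-125c-5p by 44.6 to 1, and in metacercariae its 14 tags stood beside 17.

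Vertebrate miRNA families were more numerous and at higher levels in the vesicle library as well; vertebrate let-7 has the same seed. Of 36 families typical of vertebrate host cells, 31 had tags in vesicles, and eggs had 19, metacercariae 22 and adults 17. Rfam miRNA classes of any kind numbered 103 in vesicles, 58 in eggs, 70 in metacercariae and 59 in adults. A larger number in vesicles is therefore not particular to the vertebrate families. The list was written by hand, and some of its families may occur in other animals or match other RNA at low counts, so tags in the stages need not come from a host. Their sum was 8524 RPM of annotated tags in vesicles, 139 in eggs, 120.2 in metacercariae and 85.2 in adults. All 31 families with tags in vesicles or adults were higher in vesicles on that scale. mir-122, the main miRNA of vertebrate liver, had 5577 tags in vesicles and 43 in adults. mir-21, broadly expressed in vertebrates, had 1464 tags in vesicles and 0 in adults. mir-486, abundant in red blood cells, had 1082 in vesicles and 0 in adults. mir-451, also of red blood cells, had 792 tags in vesicles, while eggs had 326, metacercariae 1303 and adults 539. As RPM of annotated tags this was 335 in vesicles, 15.9 in eggs, 63.6 in metacercariae and 27.8 in adults. mir-194 was higher in eggs (19.6 RPM of annotated tags) than in vesicles (9.32). At 0 in vesicles were mir-15, mir-20, mir-145, mir-191 and mir-214. At 0 in adults were 19 families, among them mir-21, mir-17, mir-143, mir-223, mir-378 and mir-486. Fluke families were present in vesicles too, with miR-71 at 69.6% of miRNA tags, bantam at 5.81%, miR-277 at 0.643%, miR-2 at 0.101% and miR-36 at 0.0219%. The Rfam let-7 tags are listed apart from the 9024 let-7-5p tags, and whether vertebrate tags are among the 9024 was not tested.

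**Figure D4:**
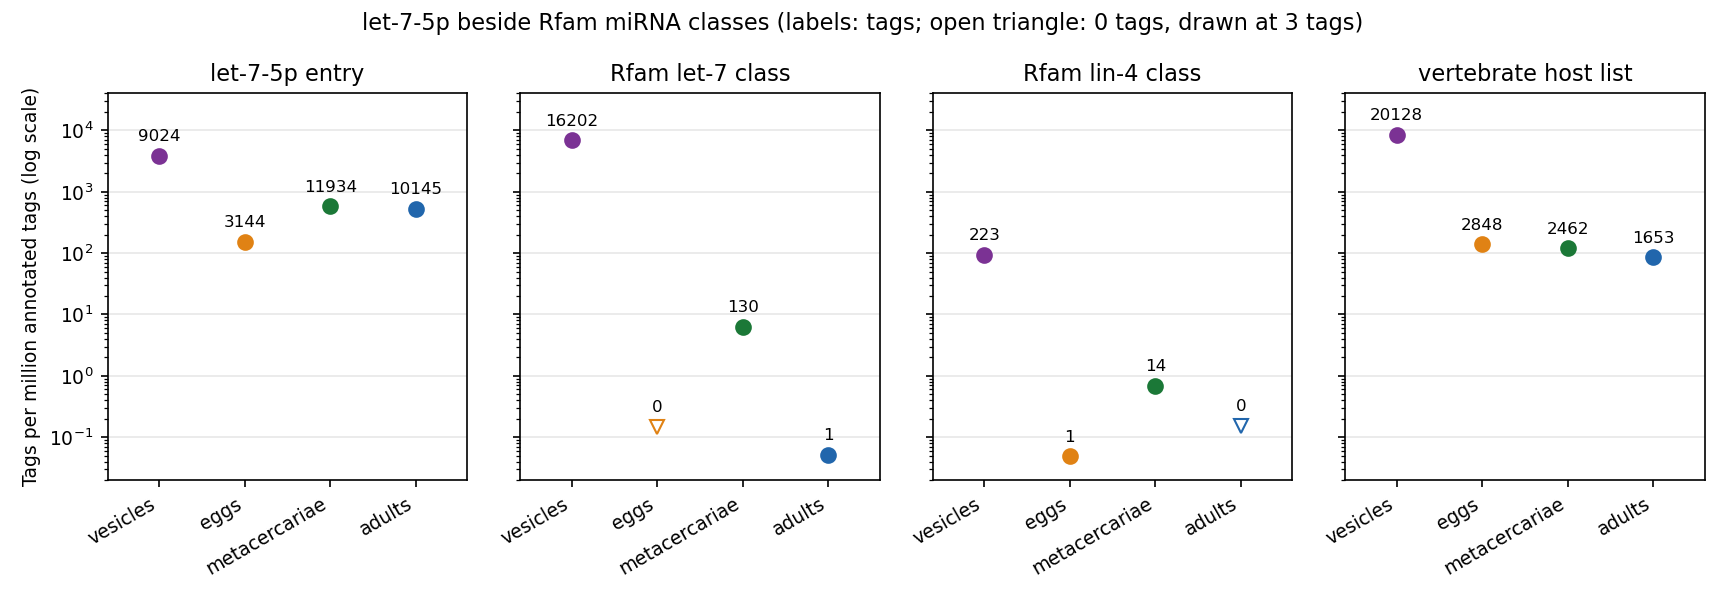
RPM of annotated tags (log scale) of let-7-5p, of the Rfam let-7 and lin-4 classes and of the summed list of 36 vertebrate host families, in the single library of vesicles, eggs, metacercariae and adults, with tag counts as labels. Open triangles are counts of 0 drawn at 3 tags. All 4 measures are highest in vesicles, and the Rfam let-7 class differs most between vesicles (16202 tags) and adults (1 tag).

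Of the 10 names in the heterochronic list, let-7 and miR-125 alone had a mature entry, and lin-4 was present only as its Rfam class. The other 7 names were miR-100, shared by vertebrates and insects, miR-99 and miR-98 of vertebrates, and miR-48, miR-84, miR-237 and miR-241 of nematodes. They had no entry of that name in any library, and whether an Rfam class holds tags of them was not tested. The Rfam mir-10 class, to which miR-100 belongs, did have tags, with 4209 in vesicles while eggs had 42, metacercariae 37981 and adults 95. As RPM of annotated tags it stood at 1854 in metacercariae (1835 to 1872) and 4.90 in adults (3.96 to 5.98), a ratio of 379 (310 to 468). In vesicles it was 364-fold higher than in adults (297 to 451). Its share of Rfam miRNA tags was 6.02% in vesicles, 5.79% in metacercariae and 0.410% in adults.

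Across the 3 stages, likeness of pattern was measured as the root mean square difference of log2(RPM of miRNA tags + 1) after centring each entry, over 50 known miRNAs with at least 10 tags in a stage. let-7-3p and miR-125c-5p were each other's nearest entry (0.16), followed for both by miR-755-3p (0.21), with 1211 egg, 8166 metacercaria and 11964 adult tags. The nearest entries to let-7-5p were miR-281 (0.23), miR-745-3p (0.25) and new_miR-101 (0.43). let-7-3p was not among them, since it came eleventh at 0.68. With 3 libraries these are descriptions. The value for miR-125c-5p leans on its 1 egg tag and on the added 1 RPM, which exceeds its egg level of 0.230. Without that addition its ratio in eggs over adults was 0.0222 (5.48e-04 to 0.132), beside 0.0737 for let-7-3p. All 3 members were ordered eggs below metacercariae below adults, as were 9 of the 50 known miRNAs (18.0%). On the scale of annotated tags 8 were so ordered, 2 of the 3 members among them, let-7-5p being the exception.

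Scaling changed the size of the differences more than their direction. With annotated-tag scaling the median log2 fold over all entries shifted by 0.33 for eggs over adults, 0.87 for metacercariae over adults, -0.61 for eggs over metacercariae and -0.39 for vesicles over adults. In the same comparisons TMM shifted it by 0.22, 0.70, -0.09 and 0.57, and median-of-ratios scaling by 0.62, 0.73, 0.00 and 1.52. Of 55 ratios of the 3 entries under other scalings or sums, 54 kept their side of 1. Among these were values near 1, as for let-7-5p in metacercariae over adults (0.969 by median of ratios, 0.929 by TMM). let-7-5p was higher in vesicles than in adults under all of them, from 7.31-fold to 27.5-fold. The split of all entries into higher and lower also moved. In eggs against adults 13.7% were higher and 11.8% lower by median of ratios, 6.83% and 13% by annotated tags, and 8.7% and 17.4% by TMM. Metacercariae against adults had 16.9% higher and 6.78% lower by annotated tags, 15.3% and 13% by median of ratios, and 14.1% and 13% by TMM. Eggs against metacercariae had 10.5% higher and 21.5% lower by annotated tags, 16.6% each by median of ratios, and 16% and 17.1% by TMM. Vesicles against adults had 10.2% higher and 49% lower by annotated tags, 26.5% and 30.6% by median of ratios, and 22.4% and 34.7% by TMM.

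**Figure D5:**
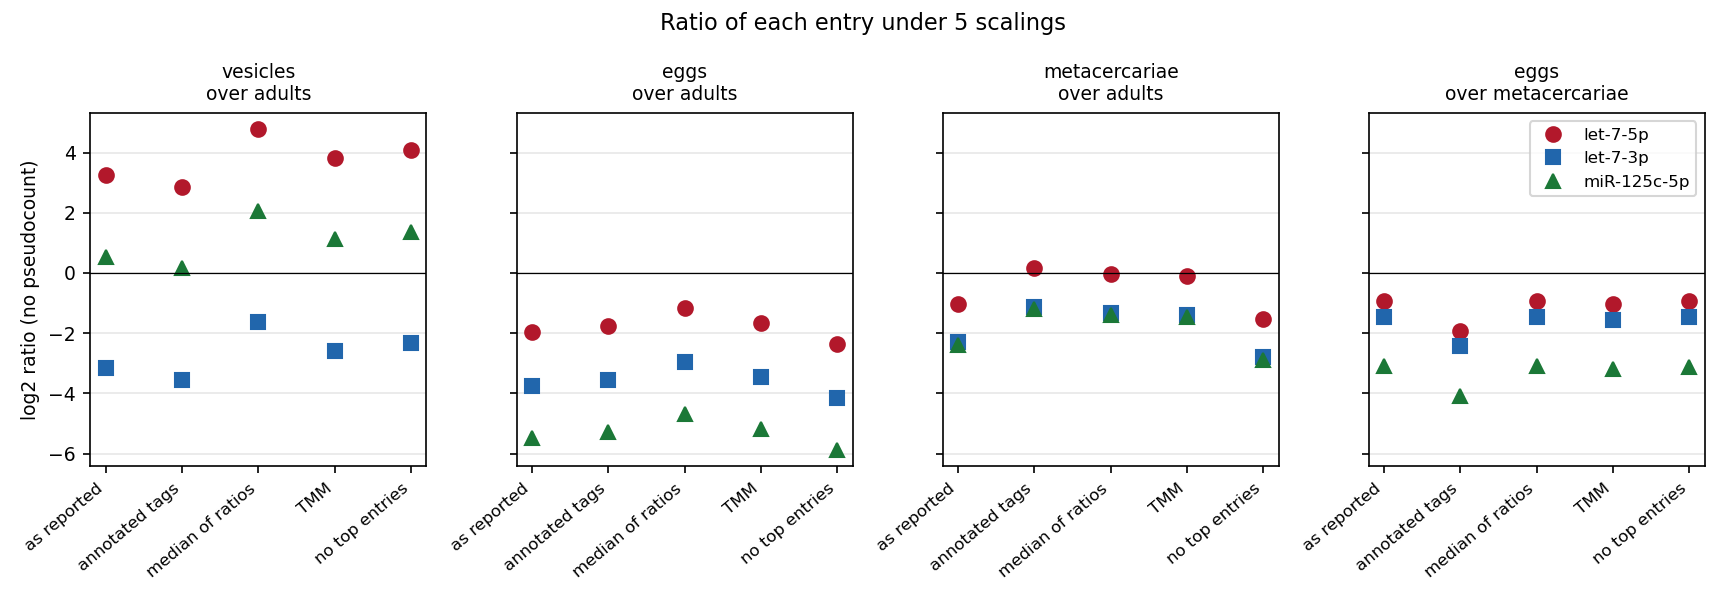
log2 ratio without pseudocount (vertical axis) of let-7-5p, let-7-3p and miR-125c-5p in each comparison of single libraries, as reported and under 4 other scalings (horizontal axis). In eggs all ratios lie below 0, let-7-5p crosses 0 in metacercariae over adults with annotated tags (ratio 1.11), and in vesicles let-7-5p stays above 0 and let-7-3p below it.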

How the data were processed

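Small RNA was sequenced from 1 library per group. Per the labels' protocols, Trizol was used for extraction and Illumina's standard protocol for libraries. For each small RNA entry the authors deposited a raw tag count, and the counts of a library summed to its header's total. The authors made RPM values by dividing each count by that total, without length correction, in a column headed TPM. The aligner, annotation tools and genome build were not given in the sources used here. The miRNA and piRNA tables of each stage held the same entries and counts. 1 deposited column from another species was not used.

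Tags were scaled to the library's miRNA total. Known miRNAs are listed from 1 tag upward and predicted ones from 10, so an unlisted predicted miRNA was set at 9. Ratios carry exact conditional binomial intervals, shares Clopper-Pearson intervals and arm odds Fisher's conditional interval (SciPy 1.17.1, Python 3.11.15). TMM came from edgeR 4.0.16 in R 4.3.3. The size rule and its intervals were tested on simulated counts. These held counting error only, so they say nothing about variation between replicate libraries. Named entries were the 3 members, the heterochronic and vertebrate lists, other hairpins with both arms, rank neighbours and the 3 entries nearest in pattern. Members, lists and rules were chosen with earlier results of these data known. Alternatives were other scalings, a pseudocount of 10 RPM, no minimum of tags, 0.5 tag added to each arm and, chosen after seeing the data, scaling vesicles to all miRNA entries.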

Additional observations from a re-analysis of the deposited data

Results flagged for a closer look

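The Rfam let-7 class, which lies outside the known miRNA entries, held 16202 tags in vesicles against 1 in adults. The Rfam lin-4 class held 223 tags in vesicles against 0 in adults. The Rfam mir-10 class held 37981 tags in metacercariae against 95 in adults. Each was picked out as a signal outside the miRNA entries that exceeds the level in adult worms, and none has a replicate.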

How the results depend on the processing

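Of 79 values recomputed under an alternative, 52 stayed within the counting interval of the reported value or, for counts of entries, within 1.5 times of it, 26 moved further and 1 changed direction. The cause was not tested. let-7-5p in eggs over adults (0.255) was 0.293 with annotated tags, 0.450 with median of ratios, 0.314 with TMM and 0.194 without the most abundant entries, and let-7-3p (0.0737) was 0.130 with median of ratios. In metacercariae over adults, with annotated tags, median of ratios, TMM and no top entries in turn, let-7-5p (0.490) was 1.11, 0.969, 0.929 and 0.347, and let-7-3p (0.203) was 0.460, 0.400, 0.384 and 0.144. miR-125c-5p (0.191) was 0.435, 0.378 and 0.363 under the first 3 of these. In eggs over metacercariae let-7-5p (0.520) was 0.263 with annotated tags and 0.488 with TMM, and let-7-3p (0.364) was 0.184 with annotated tags. In vesicles over adults let-7-5p (9.58) was 7.31 with annotated tags, 27.5 with median of ratios, 14.3 with TMM, 16.9 without the most abundant entries, 10.5 scaled to all miRNA entries and 25.4 with the Rfam let-7 class added, and miR-125c-5p (1.46) was 4.18 with median of ratios. A pseudocount of 10 RPM left 32 entries counted in metacercariae over adults, against 60. The let-7 arm ratios stayed within their intervals with 0.5 tag added. Low counts limit miR-125c-5p in eggs and vesicles and let-7-3p in vesicles. No paired analysis was possible because each group was 1 library.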
